A study of Mus musculus with 2 samples.

Results

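The serum response of THOC5 depleted mouse embryonic fibroblasts was read from 1 dual-colour Agilent array. Its members are the genes with a symbol for which a single probe was well above background in both channels, and these were 17862 of the 28312 genes with a symbol on the array. The cells were an immortalized fibroblast line of the genotype Rosa26ERT2 Cre: THOC5 (flox/flox), on a mixed C57BL/6 x B6:129 Ola background, in which tamoxifen activates a Cre recombinase that is expressed from the ubiquitous Rosa26 locus and deletes Thoc5. The depleted cells had received tamoxifen for 2 days per the labels, whereas the methods describe a shorter treatment followed by growth medium, and were then starved of serum, and the control cells of the other array were the same line, with the same Cre and the same floxed alleles, without tamoxifen. Cy3 carried RNA of the unstimulated cells and Cy5 carried RNA of the same cells after 1 h of serum (fetal calf serum, FCS). The line is 1 line of fibroblasts, each condition was 1 array, and an effect of tamoxifen or Cre itself cannot be told apart from the loss of THOC5.

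THOC5 is a subunit of the THO complex, which joins RNA polymerase II during transcription, packages the nascent transcript and recruits export factors, so that the mRNA can leave the nucleus. Serum given to starved fibroblasts activates the ERK and calcium pathways within minutes. These act on transcription factors that are already present, mainly serum response factor (SRF) with its ternary complex partners and CREB, and switch on the immediate early genes (IEGs) without new protein synthesis. Many IEGs encode transcription factors, others encode phosphatases and inhibitors that end the signal, and a slower wave encodes cytokines, proteases and matrix proteins.

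Every ratio below is the processed signal (background subtracted and dye normalized, in arbitrary units) of the serum-treated sample over that of the unstimulated sample of the same array. A gene is said to have risen or fallen when this ratio passed 1.5-fold. With 1 array there is no test, error or p-value between samples. The dyes were not swapped on a further array here, so that a gene-specific dye bias and a serum effect cannot be told apart. The log2 ratio had a median SD of 0.031 between the spots of a probe, over 269 probes with 8 or more spots. Different probes of one gene differed more, with a pooled SD of 0.19 on the log2 scale over 3850 genes with at least 2 measured probes. Thoc5 itself had a signal of 546 in unstimulated and 455 in serum-treated depleted cells, against 4808 and 3047 in control cells. The place of this probe relative to the deleted exons is not given in the sources used here. Relative to the 75th percentile of each channel, Thoc5 was 7.15-fold lower than in control cells without serum and 5.52-fold lower with serum. All 14 collagen and fibroblast matrix genes were well above background in both channels, as were 5 of 9 macrophage and leukocyte, 4 of 7 epithelial, 4 of 7 endothelial, 3 of 8 muscle and adipocyte and 3 of 6 pluripotency markers. The members not measured were Lyz2, Aif1 and Tyrobp, Epcam, Cdh1 and Cldn4, Tek, Tie1 and Emcn, Adipoq, Plin1, Cfd and Myog, and Sox2 and Zfp42, and Adgre1, Des and Pou5f1 passed in 1 channel. Other defining markers were measured in both, among them Ptprc (14.4 in each), Csf1r (383 and 433), Kdr (805 in each), Krt14 (44.6 and 50.4), Myod1 (23.6 and 30.2) and Nanog (122 and 137). Summed over the measured members, the signal was 8350 without and 9580 with serum for the leukocyte markers, of which Itgam gave 7481 and 8700. The sums were 277 and 291 for the epithelial, 946 and 957 for the endothelial, 4080 and 4209 for the muscle and adipocyte, and 1423 and 1551 for the pluripotency markers. Of these markers 1 passed 1.5-fold, Dppa5a (1.81-fold), and their part in the results was not tested.

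A serum response was present in THOC5 depleted cells. Of the 17862 genes, 536 rose by 1.5-fold or more (3.00%), 155 by 2-fold or more (0.868%) and 33 by 4-fold or more (0.185%). In the opposite direction, 222 genes fell by 1.5-fold or more (1.24%), 45 by 2-fold or more (0.252%) and 2 by 4-fold or more (0.0112%). With normexp, a model-based background correction of the scanner's mean signals, and loess dye normalization, 331 genes rose and 60 fell by 1.5-fold or more, and 97 rose and 7 fell by 2-fold or more. Among genes with a signal above 200, 270 rose and 50 fell by 1.5-fold or more, and 93 rose and 7 fell by 2-fold or more. The remaining 17104 genes (95.8%) stayed within 1.5-fold, and the median log2 ratio was -0.01. Most of the risen genes were modest, with 381 between 1.5- and 2-fold and 122 between 2- and 4-fold. On the control array, 1115 of 17797 genes rose by 1.5-fold or more and 967 fell by as much, but these are counts from 1 array each and their difference was not tested.

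**Figure D1:**
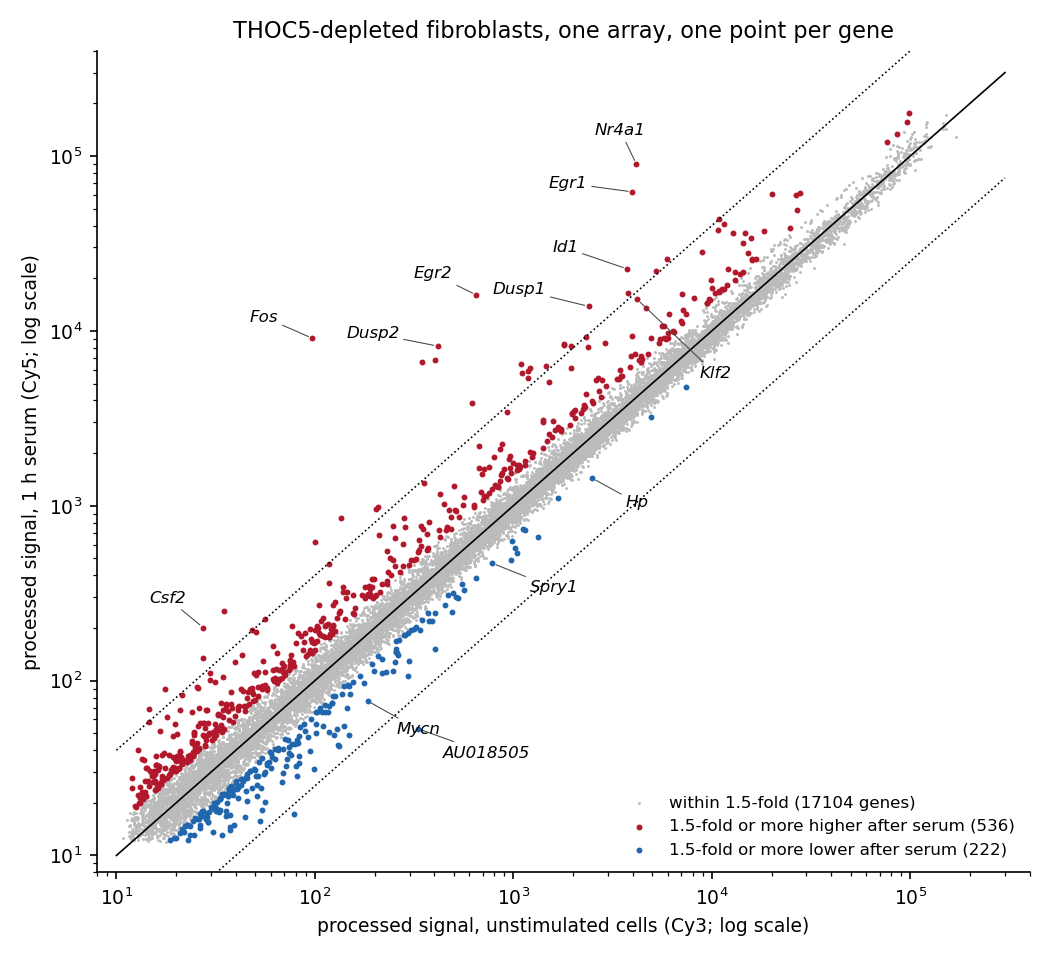
Processed signal of the 17862 measured genes in unstimulated (Cy3, x axis) and serum-treated (Cy5, y axis) THOC5 depleted cells, both on log scales. Red points are the 536 genes that rose and blue points the 222 that fell by 1.5-fold or more, the solid line marks equal signals and the dotted lines 4-fold, and most blue points lie at low signals.

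The largest rise in THOC5 depleted cells was that of Fos, the DNA-binding partner of Jun in the AP-1 transcription factor. Its probe (mm9 chr12:86817900-86817959) had a signal of 97.1 without serum and 9071 with serum, a 93.4-fold rise, with an SD of 0.051 (log2) between its spots. Fosb went from 348 to 6650, or 19.1-fold. On the control array the same probes gave 52.2-fold for Fos and 19.8-fold for Fosb, so that the value of Fos was the higher one in depleted cells and the values of Fosb were close. Junb, another AP-1 subunit, rose from 209 to 982 (4.70-fold), and Jun rose from 2908 to 8525 (2.93-fold). Both Jun proteins share partners with Fos, but their control ratios lay apart, at 12.1-fold for Junb and 2.91-fold for Jun. The stress-responsive factor Atf3 rose 4.16-fold, and the remaining risers of this family were between 1.5- and 2-fold, namely Maff (1.84-fold), Atf4 (1.80-fold), Fosl1 (1.67-fold), Mafk (1.64-fold), Fosl2 (1.56-fold) and Jund (1.55-fold). In all, 11 of the 13 measured AP-1 and CREB/ATF factors rose and 0 fell, against 3.00% and 1.24% of all genes, and their median log2 ratio was 0.85.

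The next list held the zinc finger factors of the Egr family, the orphan nuclear receptors of the Nr4a family and the Nab corepressors. Of its 6 measured members 4 rose and 0 fell, against 3.00% and 1.24% of all genes. The risers were all of its Egr and Nr4a genes measured in both channels. Egr2 went from 652 to 16040 (24.6-fold; mm9 chr10:67004798-67004857), and Egr1 from 3977 to 62359 (15.7-fold). Nr4a1, a nuclear receptor without a known hormone that acts early in growth and cell death decisions, went from 4171 to 89724 (21.5-fold; mm9 chr15:101105071-101105130). The control ratios were 45.0-fold for Egr2, 15.4-fold for Egr1 and 43.0-fold for Nr4a1. Nr4a2 rose 2.65-fold, and the corepressors Nab1 and Nab2, which bind Egr proteins, stayed within 1.5-fold. Egr3 was well above background only after serum, at a signal of 21.9, which gives a rise of at least 2.02-fold.

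Of the 19 measured genes of the immediate early response and Csrnp list, 13 rose, all of them by 2-fold or more. Over all genes, 3.00% rose by 1.5-fold or more and 0.868% by 2-fold or more. Arc, an activity-regulated gene best known from neurons, went from 404 to 6780 (16.8-fold). Ier2 rose from 621 to 3862 (6.22-fold), and Tcim, a small regulator of Wnt and NF-kB signalling, rose from 1090 to 6451 (5.92-fold). Both exceeded their control ratios slightly, which were 5.56-fold and 5.11-fold. The pseudokinase Trib1 rose 5.05-fold, the transcription factor Csrnp1 4.69-fold, the G protein regulator Rgs16 4.57-fold, and the serum- and glucocorticoid-induced kinase Sgk1 3.55-fold. Ier3 (3.18-fold), Npas4 (3.05-fold), Gem (2.55-fold), Plk3 (2.20-fold), Pim1 (2.09-fold) and Plk2 (2.02-fold) had smaller rises.

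Among the Krueppel-like factors, which bind GC-rich promoters, 4 of 11 rose, and these were Klf10 (3.98-fold), Klf2 (3.62-fold), Klf4 (3.39-fold) and Klf6 (2.22-fold). Klf2, a factor associated with quiescence and with the response to flow, stood out by its control value. It went from 4198 to 15183 in depleted cells, and from 5984 to 7320, or 1.22-fold, in control cells. Id1, an inhibitor of basic helix-loop-helix factors, went from 3748 to 22614 (6.03-fold) in depleted cells, whereas the same probe gave 27.7-fold in control cells. The other Id genes followed in smaller steps, with Id3 at 3.37-fold, Id4 at 1.77-fold and Id2 just past the limit, from 1145 to 1721. Myc rose 1.98-fold, and its relative Mycn went from 185 to 76.4, a 0.414-fold ratio. Of the repressors in the Snail, Hes and Hey list, Snai1 (2.21-fold), Hes1 (2.19-fold) and Bhlhe40 (2.14-fold) rose in a narrow range, although their control ratios ran from 6.17 to 12.1. Hes5, another Hes repressor, went the other way and was well above background only without serum (223 against 9.71), a fall of at least 18.6-fold. The control array gave the same picture for Hes5, at 241 without and 8.31 with serum. Over the transcription factor, immediate early response and clock lists together, which also hold kinases, GTPases and other proteins, 43 of 90 measured genes (47.8%) rose and 1 fell, against 3.00% and 1.24% of all genes.

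**Figure D2:**
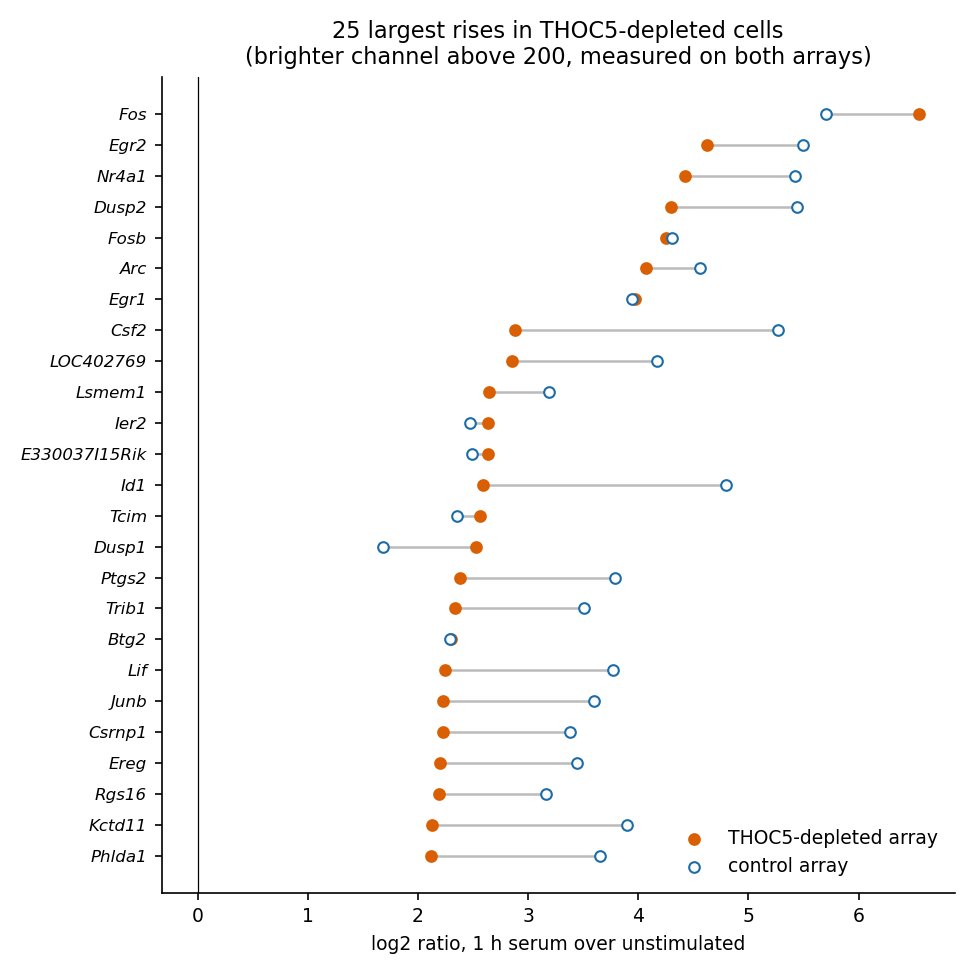
Log2 ratio of the serum-treated over the unstimulated sample (x axis) for the 25 genes with the largest rise in THOC5 depleted cells among those with a signal above 200 in the brighter channel and measured on both arrays. Filled points are the depleted array and open points the control array. Fos and Dusp1 lie further right in depleted cells, Fosb, Egr1 and Btg2 nearly coincide, and Csf2 and Id1 are furthest apart.

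The 250 bases before and 50 bases after each start site, from RefSeq on GRCm38.p6, were searched on both strands for the letters of 6 motifs, and a match on both strands at 1 place was counted once. None of these motifs holds another. A promoter was held for 334 of the 536 risen genes, for 94 of the 155 that rose 2-fold or more, and for 96 of the 222 fallen genes. The CArG box, the site of SRF, is CC and GG around 6 bases that are A or T. It was found for 12 of 334 risen genes (3.59%) and for 4 of 94 genes past 2-fold (4.26%), beside 1.81% of all promoters and 1.69% of those of measured genes. The cAMP response element TGACGTCA, the site of CREB, was found for 18 risen genes (5.39%) and 8 of those past 2-fold (8.51%), beside 2.03% of all promoters and 3.37% of those of measured genes. The NF-kB site was found for 33 risen genes (9.88%) and 11 of those past 2-fold (11.7%), beside 5.14% of all promoters and 6.24% of those of measured genes. The AP-1 site TGACTCA was found for 26 risen genes (7.78%) and 7 of those past 2-fold (7.45%), beside 5.95% of all promoters and 4.95% of those of measured genes. The FoxO site GTAAACA was found for 14 (4.19%) and 3 past 2-fold (3.19%), beside 4.05% and 3.23%. The E-box CACGTG was found for 39 (11.7%) and 15 past 2-fold (15.96%), beside 8.09% and 11.1%. Of the 96 fallen genes, 0 held the CArG box, 4 the cAMP response element (4.17%), 7 the NF-kB site (7.29%), 1 the AP-1 site, 2 the FoxO site and 7 the E-box. These shares are descriptions of letters in a window, were not tested, and say nothing about binding.

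Matches to the CArG letters in risen genes are shown because SRF is the classical factor of the serum response. They are printed 5′ to 3′ on the strand of the gene, for the 4 holders with the largest rise, and the capitals mark each match.
Egr2: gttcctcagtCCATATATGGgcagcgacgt
Dusp5: ggggaaatacCCATATTTGGCCTTATATGG
Zfp36: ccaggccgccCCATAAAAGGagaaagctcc
Cyp1a1: gacacagagtCCTATAAAGGtggtggtgcc
The windows lie at chr10:67537787-67537816 (Egr2, plus strand), chr19:53529053-53529082 (Dusp5, plus strand), chr7:28379267-28379296 (Zfp36, minus strand) and chr9:57697571-57697600 (Cyp1a1, plus strand) on GRCm38.p6. The match of Egr2 ends 124 bases before the start site, that of Zfp36 49 bases and that of Cyp1a1 23 bases before it, and Dusp5 holds 2 adjoining matches. Cyp1a1 was dim, from 28.6 to 68.1 (2.38-fold), and whether SRF acts at its match was not tested. Egr2 held further matches nearer to its start, and Srf itself, which rose 1.89-fold, held the letters as well.

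The cAMP response elements of the 4 holders with the largest rise are shown because 3 of them restrain signalling or growth (Dusp1, Btg2 and Errfi1), and Rcan1 inhibits the phosphatase calcineurin.
Dusp1: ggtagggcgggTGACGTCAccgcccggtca
Btg2: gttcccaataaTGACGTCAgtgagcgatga
Errfi1: gctgcgggcgtTGACGTCAcgttgtcgctc
Rcan1: gactaaggtgtTGACGTCAcctctttccag
These windows lie at chr17:26508597-26508626 (Dusp1, minus strand), chr1:134079303-134079332 (Btg2, minus strand), chr4:150855008-150855037 (Errfi1, plus strand) and chr16:92400235-92400264 (Rcan1, minus strand). Their serum ratios in depleted cells were 5.76-fold for Dusp1, 4.92-fold for Btg2, just under 4-fold for Errfi1 and 3.66-fold for Rcan1. The same letters were found for Areg (3.03-fold), Has1 (2.28-fold), Arl4d (2.16-fold) and Plk2 (2.02-fold), which completes the 8 genes past 2-fold.

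The NF-kB matches are shown, at 1 place each, for the 3 holders with the largest rise in the NF-kB and chemokine lists, because these genes are known NF-kB targets.
Tnfaip3: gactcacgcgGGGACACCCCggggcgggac
Cxcl1: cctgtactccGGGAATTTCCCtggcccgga
Nfkbia: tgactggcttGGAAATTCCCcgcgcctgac
They lie at chr10:19015516-19015545 (Tnfaip3, minus strand), chr5:90891164-90891193 (Cxcl1, plus strand) and chr12:55492657-55492686 (Nfkbia, minus strand). Tnfaip3 rose 3.15-fold, Cxcl1 2.48-fold and Nfkbia 2.14-fold. Cxcl10, which rose 1.85-fold, held the letters as well. The capitals of Cxcl1 span 2 overlapping matches, and Tnfaip3 held a further match nearer to its start.

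Of the 69 measured genes of the phosphatase, Sprouty, NF-kB, TGF-beta and mRNA decay lists, which hold feedback inhibitors together with ligands, activators and general decay factors, 22 rose (31.9%) and 1 fell, against 3.00% and 1.24% of all genes, and their median ratio was 1.28. The dual-specificity phosphatases remove phosphates from MAP kinases. Dusp2, the nuclear ERK phosphatase, went from 416 to 8185 (19.7-fold), Dusp1 from 2398 to 13806 (5.76-fold), and Dusp5 from 48.3 to 195 (4.04-fold). Dusp6, the cytoplasmic ERK phosphatase, rose 2.28-fold, Dusp8 rose 1.51-fold, and the other 6 of 11 stayed within 1.5-fold. Dusp8 did not pass 1.5-fold under every alternative processing. The control ratios were 43.3-fold for Dusp2 and 3.21-fold for Dusp1, so that the ratio of Dusp1 was the higher one in depleted cells and that of Dusp2 the lower one. For Dusp2 the depleted signals were below those of control cells in both channels, at 416 against 1732 without serum and at 8185 against 75051 with serum, on processed signals that are not scaled between arrays.

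Inhibitors of receptor tyrosine kinases and cytokine receptors behaved unevenly. Errfi1, which binds and blocks the EGF receptor, went from 10913 to 43653 (just under 4-fold, against 17.3-fold in control cells). Socs3, an inhibitor of JAK signalling, went from 3983 to 9314 (2.34-fold, against 1.64-fold). The Sprouty proteins, which restrain RAS and ERK signalling, did not move together. Spry4 rose 2.14-fold and Spry2 1.59-fold, both at signals under 200, and Spry1 went from 782 to 469, a log2 ratio of -0.74. Of the NF-kB subunits and inhibitors, the 3 of 14 that rose were all negative regulators or atypical inhibitors, Tnfaip3 (3.15-fold), Nfkbiz (3.08-fold) and Nfkbia (2.14-fold). Of the TGF-beta and BMP feedback genes, 3 of 17 rose, namely the inhibitory Smad7 (3.28-fold), Skil (2.44-fold) and Gdf15 (2.14-fold). Gdf15 was dim, from 25.8 to 55.2, and its log2 ratio did not pass 1.5-fold with normexp and loess (0.56) or with signals raised to 50 (0.14).

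Among the genes that destabilize mRNA or restrain proliferation, Btg2 and Zfp36 had ratios close to those of control cells. Btg2, an antiproliferative partner of the CCR4-NOT deadenylase, went from 1191 to 5859 (4.92-fold, against 4.89-fold in control cells). Zfp36 (tristetraprolin), which binds AU-rich elements and speeds the decay of IEG and cytokine mRNAs, went from 353 to 1351 (3.83-fold, against 4.05-fold). Noct, a clock-regulated phosphatase of NADPH, rose 2.05-fold, against 6.18-fold. Btg1 (1.62-fold), Zfp36l1 (1.56-fold) and the endonuclease Zc3h12a (1.55-fold, against 2.43-fold) completed the 6 risers of 13 measured genes, beside 3.00% of all genes that rose. The median log2 ratio of this list was 0.50 in depleted and 0.49 in control cells, and that of the AP-1 and CREB/ATF list 0.85 and 1.64, and these differences were not tested.

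**Figure D3:**
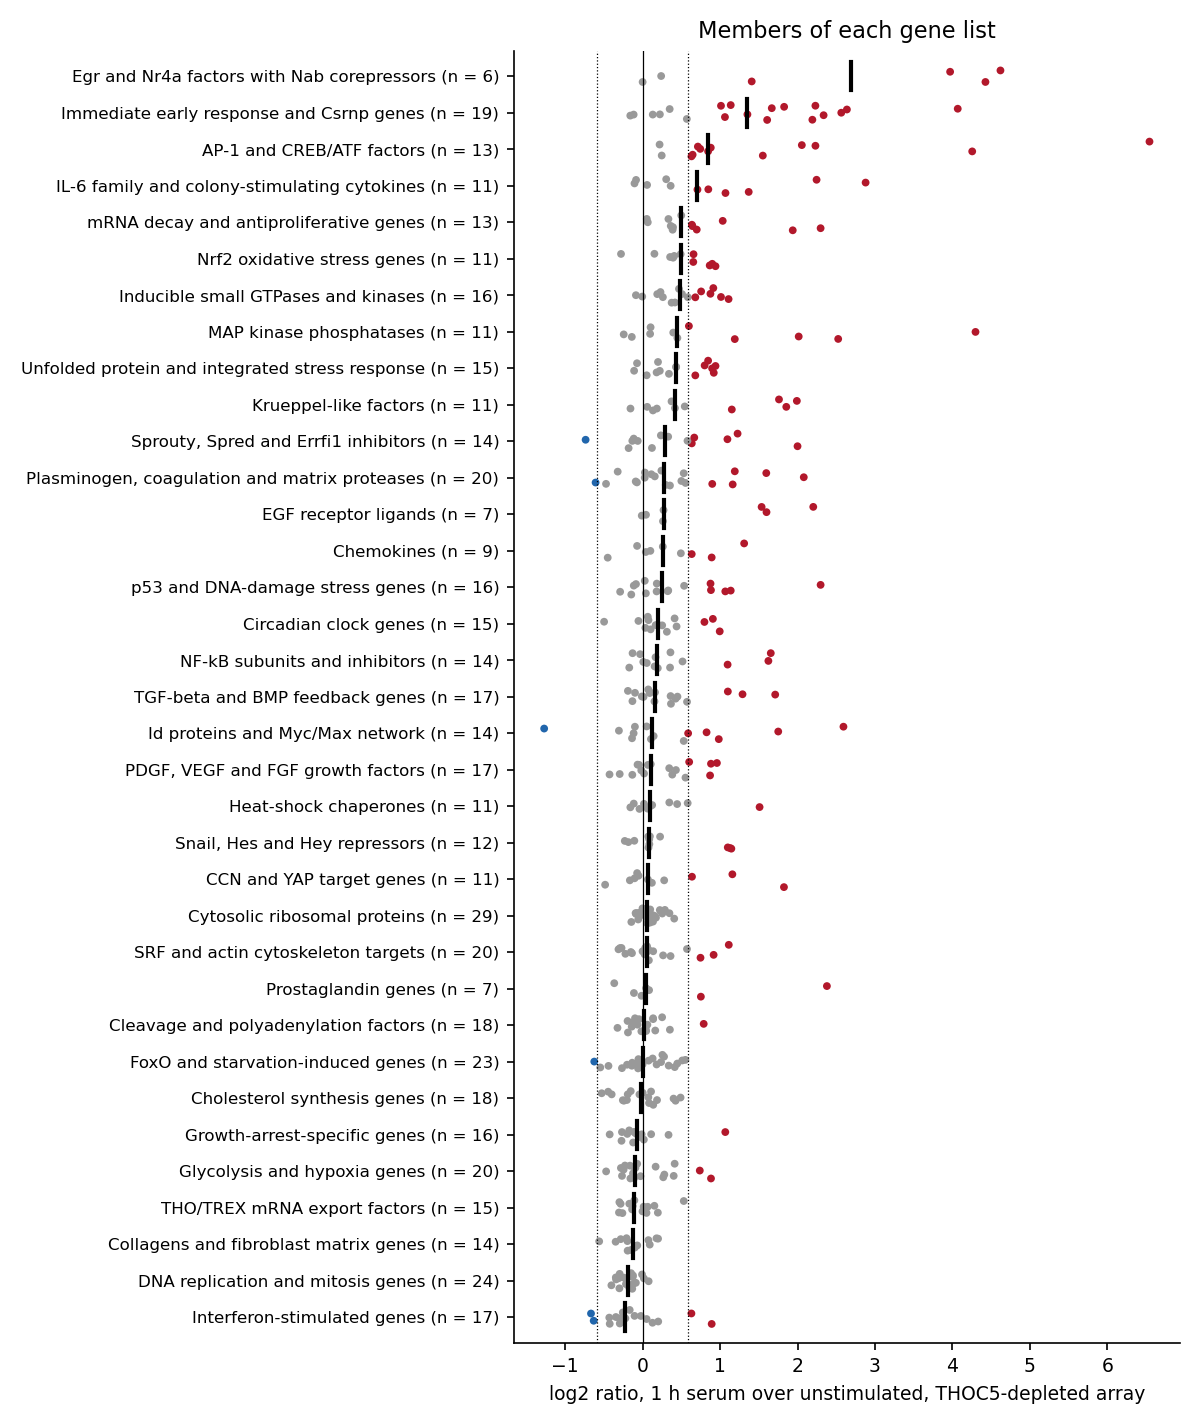
Log2 ratio on the THOC5 depleted array (x axis) for each measured member of the gene lists, ordered by the list's median (black bar), with red for genes that rose and blue for genes that fell past 1.5-fold (dotted lines). The Egr and Nr4a, immediate early response and AP-1 lists lie at the top, and the interferon, replication and fibroblast matrix lists at the bottom, close to 0.

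Among secreted factors, 16 of 44 measured genes (36.4%) rose and 0 fell, against 3.00% and 1.24% of all genes. Of the 7 EGF receptor ligands, Ereg went from 1809 to 8329 (4.61-fold), Areg from 282 to 854 (3.03-fold) and Hbegf from 4678 to 13566 (2.90-fold). These ligands are shed from the cell surface and act on neighbouring cells, and all 3 had control ratios between 8.24 and 10.9. Csf2, the granulocyte-macrophage colony-stimulating factor, went from 27.3 to 201 (7.36-fold) in depleted cells and from 59.6 to 2295 (38.5-fold) in control cells. Lif rose from 203 to 961 (4.74-fold), Il11 rose 2.58-fold and Clcf1 2.10-fold, whereas Csf3 (1.80-fold) and Il6 (1.63-fold) rose by less. Of 9 measured chemokines 3 rose, by 2.48-fold (Cxcl1, from 14668 to 36381), 1.85-fold (Cxcl10) and 1.55-fold (Ccl2, from 86038 to 133475). The other chemokines, among them Cxcl5 (1.03-fold) and Ccl7 (1.41-fold), stayed within 1.5-fold. Of 17 PDGF, VEGF and FGF growth factors, Edn1 (1.94-fold), Vegfa (1.84-fold), Fgf18 (1.83-fold) and Gdnf (1.52-fold) rose.

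The cytoskeleton and matrix class had 11 risers of 51 measured genes (21.6%, against 3.00% of all genes). Its secreted matricellular proteins Ccn1 and Ccn2, which are targets of SRF and YAP, rose 3.54-fold (from 10703 to 37913) and 2.23-fold (from 26668 to 59525). With Ankrd1 they were the 3 risers of 11 CCN and YAP target genes. The others, among them Ccn4 (0.892-fold), Amotl2 (1.05-fold) and Ajuba (0.715-fold), stayed within 1.5-fold. Serpinb2, an inhibitor of urokinase, went from 343 to 768 (2.24-fold, against 20.6-fold in control cells). F3, the tissue factor that starts coagulation, rose 4.23-fold, Has1, which makes hyaluronan, 2.28-fold, and the urokinase receptor Plaur 1.86-fold. Over the 20 proteases, inhibitors and matrix enzymes, 5 rose and Adamts5 fell (0.656-fold, from 106 to 69.5, a log2 ratio of -0.40 with normexp and loess, and not counted with signals above 200) in depleted cells, while 14 rose on the control array, where Mmp10 had 6.52-fold, against a signal of 44.9 without and 45.8 with serum in depleted cells. Of 20 SRF and actin targets, Rhob (2.16-fold), Srf (1.89-fold) and Itga5 (1.68-fold) rose, and the structural genes Acta2, Tagln, Vcl and Flna stayed within 1.5-fold. The count of risers in this list was 5 with normexp and loess and also without dye normalization, and Srf had a log2 ratio of 0.54 with the median over its probes, which does not pass 1.5-fold. Actg1 reached 1.49-fold.

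Signalling enzymes and small GTPases had 8 risers of 23 (34.8%) and 0 that fell, against 3.00% and 1.24% of all genes. Ptgs2 (cyclooxygenase-2), which makes the precursor of prostaglandins, went from 1106 to 5754 (5.20-fold, against 13.8-fold in control cells), and the prostaglandin E receptor Ptger4 rose 1.68-fold. Arl4d rose 2.16-fold, the small GTPase Rnd1 1.88-fold and Arl5b 1.69-fold. Rasl11b went from 132 to 242 (1.83-fold) in depleted cells, whereas its control ratio was 0.795. Of 15 circadian clock genes, Per2 (1.99-fold), Nfil3 (1.87-fold) and Per1 (1.74-fold) rose, against 3.00% of all genes.

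Of the 53 measured stress and interferon genes, 13 rose (24.5%), 1 of them by 2-fold or more, and 2 fell, against 3.00% and 1.24% of all genes. Of 15 unfolded protein and integrated stress response genes, 6 rose, all of them by less than 2-fold. Atf4, the central factor of the integrated stress response, went from 98265 to 176531 (1.80-fold), and its targets Slc7a11 (1.92-fold), Chac1 (1.89-fold), Ppp1r15a (1.74-fold) and Trib3 rose as well, together with Dnajb9 (1.86-fold). The other members of this list, among them Ddit3 (1.27-fold), Asns (1.17-fold), Atf5 (1.15-fold) and Sesn2 (1.13-fold), stayed within 1.5-fold. Trib3 went from 15941 to 25537 in depleted cells (a log2 ratio of 0.68), whereas its control ratio was 1.00. Of 11 Nrf2 target genes, which detoxify oxidants, Slc7a11, Srxn1 (1.86-fold), Hmox1 (1.82-fold), Osgin1 (1.58-fold) and Nqo1 (1.57-fold) rose. Nqo1 went from 3487 to 5486 and Osgin1 from 1139 to 1795 in depleted cells, and their control ratios were 1.03 and 0.957. The control ratios were the higher ones for 5 of the 11 genes, among them Hmox1 (3.26-fold) and Srxn1 (2.89-fold). The list's median log2 ratio was 0.49 in depleted and 0.36 in control cells. Of 21 measured glutathione S-transferase (Gst) genes of several classes, which were looked at after their values were seen, 4 rose and 0 fell, against 3.00% and 1.24% of all genes, with a median log2 ratio of -0.01. The risers were of the alpha class. Gsta2 went from 426 to 1165 (2.74-fold), Gsta1 from 796 to 1907 (2.40-fold), Gsta3 from 24.7 to 48.7 (1.97-fold) and Gsta4 from 841 to 1305 (1.55-fold), and their control ratios in this order were 1.44, 1.47, 0.936 and 1.19. Gsta1 and Gsta2 are close copies, so that their probes may share RNA. One heat-shock gene of 11, the cochaperone Dnajb1, rose (2.85-fold), against 3.00% of all genes, and the count was 2 with normexp and loess and 4 without dye normalization.

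Interferon-stimulated genes had a median log2 ratio of -0.22 over 17 measured genes, beside -0.01 over all genes. Of the 17 genes, 2 rose (Cxcl10 1.85-fold and Rsad2 1.55-fold) and 2 fell (Usp18 and Irf7), against 3.00% and 1.24% of all genes. After normexp correction and loess 0 fell. Usp18, which removes the ubiquitin-like ISG15, went from 346 to 223 (0.645-fold), and Irf7, a factor of interferon induction, from 32.2 to 20.3 (0.63-fold). On the control array the same list had a median of -1.21 with 11 genes that fell, and 1 of 16 genes was higher there. Mx2, an antiviral GTPase, went from 162 to 127 in depleted cells (a log2 ratio of -0.35), and its control ratio was 0.217.

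**Figure D4:**
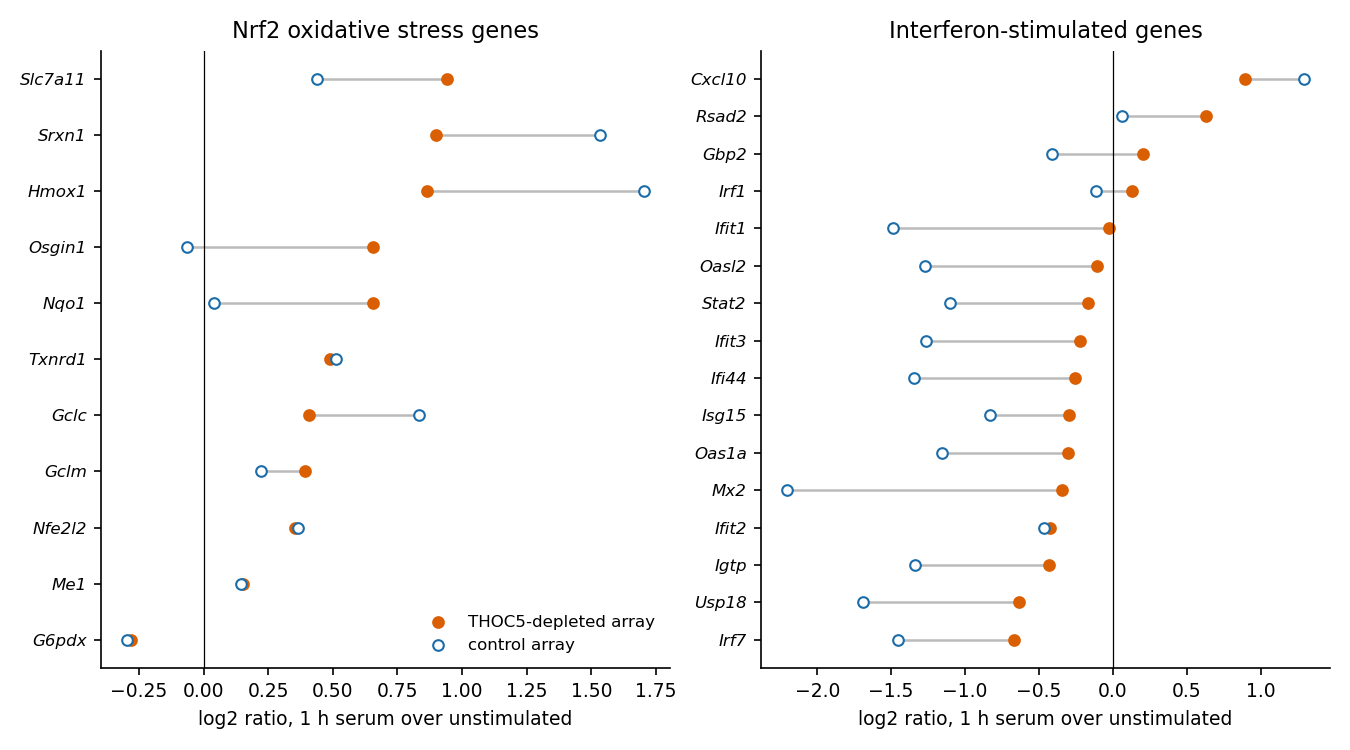
Log2 ratio of the serum-treated over the unstimulated sample (x axis) for the Nrf2 target genes (left) and the interferon-stimulated genes (right) measured on both arrays, with filled points for the THOC5 depleted array and open points for the control array. The depleted values of most interferon genes lie nearer to 0 than the control values, Nqo1 and Osgin1 lie past 1.5-fold in depleted and near 0 in control cells, and Hmox1 and Srxn1 lie further right in control cells.

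Of 23 FoxO and starvation-induced genes, 0 rose and 1 fell, against 3.00% and 1.24% of all genes, and the faller was Klhl24, which went from 554 to 359 (0.648-fold, against 0.269-fold in control cells). Its log2 ratio no longer passed 1.5-fold with normexp and loess (-0.54) or with the median over its probes (-0.37). Txnip, the inhibitor of thioredoxin and glucose uptake, went from 840 to 618 in depleted cells (a log2 ratio of -0.44), and its control ratio was 0.286. The proapoptotic Bmf was level in depleted cells, at 294 in both channels, and its control ratio was 0.189. The growth-arrest-specific list also holds cyclins (Ccnd1, Ccnd2 and Ccne1) and cell cycle inhibitors. Of its 16 measured genes, the inhibitor Cdkn1a (p21) rose, from 350 to 733 (2.10-fold, against 7.09-fold), and 0 fell. Of 16 p53 and DNA-damage genes, Cdkn1a, Btg2, Plk3, Pmaip1 (1.84-fold) and Gadd45g (1.84-fold) rose, and Cdkn1a, Btg2 and Plk3 are also counted in other lists. The other members, among them Mdm2 (1.45-fold), Ccng1 (0.903-fold) and Bax (0.817-fold), stayed within 1.5-fold. The 24 DNA replication and mitosis genes had a median log2 ratio of -0.19 with none past 1.5-fold in either direction, and none of 18 cholesterol synthesis genes passed it, as was the case for 95.8% of all genes. None of 29 cytosolic ribosomal protein genes passed it either, although 12 of them rose when the signals were left without dye normalization. Of 20 glycolysis and hypoxia genes, Vegfa and the glucose transporter Slc2a1 (1.67-fold) rose.

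None of the 15 measured THO/TREX export genes passed 1.5-fold after serum in depleted cells, where 95.8% of all genes stayed within it as well. Thoc1 had the highest ratio, with 65.1 and 94.1 (a log2 ratio of 0.53), and Thoc2 the lowest (a log2 ratio of -0.31). Of 18 cleavage and polyadenylation factors, Pcf11, which links polyadenylation to transcription termination, went from 70.2 to 121 (1.73-fold, against 2.42-fold in control cells), and the others stayed within 1.5-fold. This is 1 of 18, against 3.00% of all genes, and Pcf11 stayed just under 1.5-fold with normexp and loess (a log2 ratio of 0.58) and was left out where signals above 200 were required.

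Between 2- and 4-fold, the brightest risen genes included Ccn2, Nfkbia, Plk2 and Ifrd1, a coregulator of transcription that went from 27775 to 61447 (2.21-fold, against 4.76-fold in control cells). Between 1.5- and 2-fold the brightest included Atf4, Ccl2, Gadd45g (from 26721 to 49050) and the tubulin gene Tuba1c (from 76211 to 120974, 1.59-fold). Large rises outside the lists were those of Lsmem1, a small membrane protein gene (from 136 to 850, 6.25-fold), E330037I15Rik (6.22-fold) and LOC402769 (from 34.7 to 251, 7.23-fold). Of the 76 risen genes with at least 2 measured probes, 62 had every probe above 0 and 33 had every probe past 1.5-fold. The 4 such genes past 4-fold had every probe past 1.5-fold.

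The genes that fell differed from the risen ones in signal and in annotation. Only 50 of the 222 fallen genes (22.5%) had a signal above 200 in either channel, beside 270 of 536 risen genes (50.4%) and 65.6% of all measured genes. Among genes with a signal above 10000, 58 of 2146 rose and 0 fell. Clone-based names (RIKEN, Gm, LOC and the like) made up 49.1% of the fallen genes, 21.5% of the risen and 23.4% of all measured genes, and protein-coding entries of RefSeq made up 50.9%, 77.8% and 77.1%. The part of the low signals in these falls was not tested. The largest fall among genes measured in both channels was that of AU018505, from 329 to 53.2 (6.19-fold), and the other 4-fold fall among them was LOC100044832, from 78.2 to 17.4. Among fallen genes with a signal above 200 in the brighter channel, next came Gm7265 (from 296 to 106, 2.80-fold), D230044B12Rik (from 402 to 152, 2.65-fold), Zfp87, a zinc finger gene (from 299 to 130, 2.30-fold), and D730035F11Rik (from 247 to 114, 2.17-fold). D8Ertd158e (from 1325 to 661) and 2810026P18Rik (from 228 to 111) were close to 2-fold. Between 1.5- and 2-fold, the brightest fallen genes were Hp (haptoglobin, from 2495 to 1438, 1.73-fold), Rtp4 (from 1144 to 726, 1.57-fold), Msln (mesothelin, from 7439 to 4791, 1.55-fold), the taurine transporter Slc6a6 (from 4965 to 3237, 1.53-fold) and Bgn (the matrix protein biglycan, from 1679 to 1112, 1.51-fold). Kifc5b, a kinesin gene, fell 1.79-fold in depleted cells and had a control ratio of 1.44. Rtp4, Slc6a6 and Kifc5b did not pass 1.5-fold under every alternative processing.

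Families with fallen members were looked at after the values were seen. Of 322 measured Zfp genes, 15 fell and 5 rose, against 1.24% and 3.00% of all genes, with a median log2 ratio of -0.15, and on the control array 133 fell, with a median of -0.47. Of 23 measured Hox genes, 5 fell, namely Hoxb8, Hoxa3, Hoxc5, Hoxa9 and Hoxb5, with ratios from 0.551 to 0.636, and 0 rose, against the same shares of all genes. On the control array 10 Hox genes fell and 1 rose, with a median log2 ratio of -0.48. After normexp correction and loess, 4 Zfp and 2 Hox genes fell. Many Zfp genes are close copies, and their probes may share RNA. Hoxa3 went from 374 to 218, and Hoxb5 from 286 to 182.

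In 320 genes only the serum channel, and in 402 only the unstimulated channel, was well above background, so that their ratios are bounds. Each bound was taken against the other channel, using the higher of the probe's own signal and the lowest signal well above background there. The bound reached 2-fold for 23 of the former and 24 of the latter. The highest bounds of a rise were at least 9.74-fold for Gm6590 (a signal of 113 after serum) and at least 5.14-fold for Mc1r, the melanocortin receptor (55.8). Besides Hes5, the highest bound of a fall was at least 4.24-fold for 5330430P22Rik. Neither channel was well above background for 9727 genes, and 1 gene passed in both channels but never by the same probe.

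For 17234 of the 17862 genes the same probe was also measured in both channels of the control array. There, 6.23% had risen and 5.50% had fallen by 1.5-fold or more. Of the 486 genes that rose in depleted cells and were measured in control cells, 360 (74.1%) also rose there, and 3 fell. All 30 such genes past 4-fold rose in control cells too, with a median ratio of 11.8 there. In depleted cells the 33 genes past 4-fold had a median ratio of 5.11. Of the 183 fallen genes measured in control cells, 111 (60.7%) also fell there and 4 rose. These genes were selected on the depleted array and each condition was 1 array, so that a difference between the arrays was not tested.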

How the data were processed

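RNA of unstimulated (Cy3) and serum-treated (Cy5) cells was hybridised to 1 dual-colour array per condition. The authors deposited scanner output of Agilent Feature Extraction 10.7.3.1, with processed signals that are intensities, background subtracted and dye normalized (linear and LOWESS) within the array, and whose log ratio is log10 of Cy5 over Cy3. Spots called outliers by the scanner software (234) were left out, spots of a probe were averaged on the log2 scale, and the probe with the highest mean signal stood for a gene. Of 35777 probes with a symbol, 26412 were named through their RefSeq accession. The authors' deposited table of log10 sizes equalled the scanner's ratio within 0.0001 for all 26474 spots well above background in both channels, and lacks the sign. Named genes were 5 markers, the 15 largest rises and falls with a signal above 200, the 5 brightest genes between the fold limits, list members, Thoc5 and up to 5 bounds in each direction. Members and gene lists were chosen with earlier results of these data known. The steps were tested on simulated data. Alternatives used limma 3.58.1, and Python 3.11.15 with pandas 2.3.3 was used otherwise. The number of arrays limits the precision. Exon and UTR positions of the probes were not assigned, as no mm9 annotation was used here. A few genes that the rule names are not reported here.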

Additional observations from a re-analysis of the deposited data

Results flagged for a closer look

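In 7 genes the log2 ratio passed 1.5-fold in opposite directions on the arrays of THOC5 depleted and control cells, each with 1 array, and the difference was not tested. The depleted ratio was below 0 and the control ratio above 0 for Pramel39 (-1.66 against 2.28), the homeobox gene Hoxb8 (-0.86 against 1.36), Gm8556 (-0.63 against 0.69) and LOC677576 (-0.61 against 0.64). The depleted ratio was above 0 and the control ratio below 0 for Rasgef1b (0.61 against -0.81), Podn (0.68 against -0.61) and Gm2753 (0.74 against -0.70). Their signals in depleted cells were all under 200 in both channels.

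Probes without a gene symbol were not part of the comparison. Of 1570 such probes with both channels well above background, 55 rose by 1.5-fold or more, which is 3.50%, and 5 rose by 2-fold or more. The probe with the largest ratio, annotated to kinesin family member 17, went from 27.1 to 98.2 (3.63-fold), and 1 annotated to sequestosome 1, an autophagy receptor and Nrf2 target, went from 166 to 410 (2.47-fold, against 1.95-fold in control cells).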

How the results depend on the processing

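No paired analysis was possible because each condition is 1 array, and no replicate could be left out for the same reason. With normexp background correction and loess, 331 genes rose and 60 fell by 1.5-fold or more, 97 rose and 7 fell by 2-fold or more, and 1 fell by 4-fold. Signals above 200 left 270 risers and 50 fallers past 1.5-fold, 93 and 7 past 2-fold, and 1 fall past 4-fold, since fewer genes were counted. Without a detection filter and with signals raised to 50, 103 fell past 1.5-fold and 19 past 2-fold. Genes with at least 2 probes, all past the limit, were 33 risers and 8 fallers at 1.5-fold, 5 and 1 at 2-fold, and 2 and 0 at 4-fold. The share of risers among called genes moved from 70.7% to 84.7% with normexp and loess and to 84.4% with signals above 200. Class counts of risers moved by over 1.5 times for housekeeping genes, from 1 to 0 (normexp and loess, signals above 200) and to 13 (no dye normalization), and for markers, from 1 to 2 (no dye normalization). Class counts of fallers went to 0 for the transcription factor and immediate early lists (signals above 200), cytoskeleton and matrix (signals above 200, normexp), growth arrest (normexp, median over probes) and stress (normexp), and to 1 for stress (signals above 200). The cause of the shifts under normexp and without dye normalization was not tested. Of 1172 recomputed values of 148 named genes, 1109 moved by less than the pooled SD between probes of one gene (0.19, log2), 63 moved by more and 0 changed sign, and 132 of the 147 called genes passed 1.5-fold under every alternative that measured them. The called genes that did not were Adamts5, Arl5b, Csf3, Dusp8, Fosl2, Gdf15, Irf7, Kifc5b, Klhl24, Pcf11, Rtp4, Slc6a6, Spry2, Srf and Usp18. Signal over background limits the dim genes.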
